A study of Homo sapiens with 16 samples.

Results

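Polysome loading was examined in pancreatic cancer cells whose mTOR kinase had been blocked with PP242, to describe which mRNAs stayed well or poorly loaded. It used 8 of the 16 arrays of the series: 4 of polysome-associated RNA and 4 of cytosolic RNA, joined by replicate number into 4 pairs. The cells were MIA PaCa-2, a single established line of human pancreatic carcinoma, grown in high-glucose medium with serum and given 2.5 µM PP242, an ATP-competitive inhibitor of both mTOR complexes, for 12 hours. The other 8 arrays, 4 cytosolic and 4 polysomal, came from the same line given DMSO vehicle for the same time and serve here only for comparison. Cytosolic extract was spun on a 10% to 50% sucrose gradient, and the fractions holding mRNA with more than 3 ribosomes were pooled as polysomal RNA. Whether the 4 replicates were separate cultures is not stated, so the p-values measure only the spread between these samples. With 1 line, 1 dose and 1 time, nothing here separates the drug's action on mTOR from its other actions.

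mTOR complex 1 promotes the start of translation. It phosphorylates the 4E-BP proteins, which otherwise hold the cap-binding factor eIF4E, and it activates the S6 kinases. Messenger RNAs that begin with a cytosine and a run of pyrimidines, the 5' terminal oligopyrimidine (TOP) motif, encode ribosomal proteins and translation factors and are known for leaving polysomes when the complex is blocked. An mRNA in the heavy fractions carries several ribosomes at once, while one that is repressed, untranslated or coding for a very short protein sediments higher up.

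The motif is shown here in mRNAs whose loading is described further on. Each window runs from 10 bases before the RefSeq start to 20 bases from it (30 bases, GRCh38.p14, read along the gene's strand). Capitals mark the pyrimidine run that spans the annotated start.
RPL29: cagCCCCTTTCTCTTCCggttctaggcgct
RPL41: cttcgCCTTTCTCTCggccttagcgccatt
RPL27A: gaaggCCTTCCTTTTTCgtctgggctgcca
RPS6: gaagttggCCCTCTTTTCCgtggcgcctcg
RPL3: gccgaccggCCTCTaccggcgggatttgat
EEF1A1: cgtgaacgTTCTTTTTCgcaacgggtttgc
EEF2: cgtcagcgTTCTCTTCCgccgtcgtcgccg
TPT1: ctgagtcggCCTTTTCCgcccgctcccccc
EIF4B: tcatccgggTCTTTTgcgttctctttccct
EIF3K: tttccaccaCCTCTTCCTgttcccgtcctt
CCNI: CTCTCTTCCCCTCCCTCCCCagccttcccc
All of these starts are a C. From the start base on, the run holds 9 pyrimidines in RPS6, 7 in RPL29, RPL27A, EEF1A1, EEF2 and TPT1, 5 in RPL41 and EIF4B, and 8 in EIF3K. In RPL3 it stops after 4, so RPL3 does not meet the definition used below, a C and 4 or more further pyrimidines on the transcribed strand. The windows lie at chr3:51995876-51995905 for RPL29, chr12:56116623-56116652 for RPL41, chr11:8682782-8682811 for RPL27A, chr9:19380217-19380246 for RPS6 and chr22:39319604-39319633 for RPL3. Those of the other genes are chr6:73521013-73521042 for EEF1A1, chr19:3985444-3985473 for EEF2, chr13:45341164-45341193 for TPT1, chr12:53006446-53006475 for EIF4B, chr19:38619178-38619207 for EIF3K and chr4:77075970-77075999 for CCNI. RPL29, RPL3, RPS6, EEF1A1, EEF2, TPT1 and CCNI are on the minus strand.

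Loading is the log2 signal of a gene in a polysome array minus that in the cytosolic array with the same number, after each array was centred on its own median. It ranks mRNAs against one another. It does not show how much mRNA of all kinds left the polysomes, and it is not a number of ribosomes per mRNA. The deposited array medians were 5.0 to 5.05 in cytosolic and 4.6 to 4.63 in polysomal RNA of PP242-treated cells. Of the 19775 genes measured, 7205 had a mean deposited log2 signal of at least 7 over the 8 arrays, and the genes named below come mostly from these. All 9 measured markers of the pancreatic cancer line were among them, with a median cytosolic signal 7.86 above the array median, against none of the 8 leukocyte, 10 endothelial and 7 normal pancreas markers and 1 of 10 fibroblast markers (COL1A2). The median loading of those 3 absent lists was -0.06, 0.11 and -0.12. Single probe sets near background still gave loadings from -1.08 to 1.17 among the endothelial markers. In the test described below, 1 leukocyte marker was called higher. So were 4 endothelial markers, with 2 lower, and 1 normal pancreas marker, with 2 lower.

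Cytosolic PP242 arrays 2 and 4 stood apart from 1 and 3. Among the 7205 genes, 219 were lower by 1 or more in arrays 2 and 4, down to -2.48, and 1 was higher by that much, while the polysome arrays showed 0 such genes in either direction. The median SD of a gene was 0.29 in the cytosolic PP242 arrays, against 0.16 in the polysomal PP242 arrays, 0.12 in cytosolic vehicle and 0.17 in polysomal vehicle arrays. In loading, pairs 1 and 3 correlated at 0.888 across these genes and pairs 2 and 4 at 0.839, and the lowest of the pairwise correlations was 0.564. Values from pairs 1 and 3 alone are therefore given where they move a called loading printed with its error by over 1.5 times, and for some other genes.

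After mTOR block, lists of aminoacyl-tRNA synthetases, the proteasome and the nuclear-encoded respiratory chain had the highest median loading over the 4 pairs. Mitochondrially encoded RNAs and long non-coding RNAs had the lowest. The same lists led in pairs 1 and 3 alone, but not in pairs 2 and 4. There actin, tubulin and keratin (0.95), mitosis (0.90) and splicing factors (0.87) lay above the proteasome (0.83), synthetases (0.80) and respiratory chain (0.77). Under another scaling, cyclic loess, mitosis (0.45) and S phase (0.35) led, with synthetases at 0.30, the proteasome at 0.29 and the respiratory chain at 0.23. With limma on the 4 pairs and Benjamini-Hochberg adjustment, 10467 of 19775 genes (52.9%) differed between polysomal and cytosolic RNA at an adjusted p under 0.05. Of all genes, 8008 (40.5%) were called higher on polysomes and 2459 (12.4%) lower. Among the 7205 genes with a mean of at least 7, 64.1% were called, 4218 higher (58.5%) and the others lower (5.54%). Calls with a loading of 1 or more numbered 1742 (8.81%) and those of -1 or less 213 (1.08%). Among the 7205 genes these were 1375 (19.1%) and 28 (0.389%). Counts of called list members below are to be read beside the shares called among all genes, 40.5% higher and 12.4% lower.

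The zero of this scale is a convention. The median loading was 0.23 over all genes and 0.50 over the 7205, so an mRNA of ordinary loading sat at 0.50. With other scalings that median was 0.09 (no centring), 0.03 (centring on the 7205 genes), 0.02 (quantile normalization) and 0.01 (cyclic loess), and the share of calls that were higher went from 76.5% to 30.0%, 24.5%, 49.4% and 49.5%. Under all 5 scalings 1529 of the 7205 genes (21.2%) were called higher and 5.54% lower, and over all genes 2169 (11%) and 2428 (12.3%). Every lower call among the 7205 thus held, but each alternative scaling moved the median down. Lower calls were so pushed further from 0, and their survival is little test of them. Loading also moved with signal level: its median was 0.40 for genes with a mean of 7 to 9, 0.66 for 9 to 11, 0.87 for 11 to 13 and 0.57 for 13 to 15. Cyclic loess took these to 0.01, 0.01, 0.07 and -0.37. A loading is hence best read against 0.50 and against genes of like signal, a comparison given below for some lists.

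**Figure D1:**
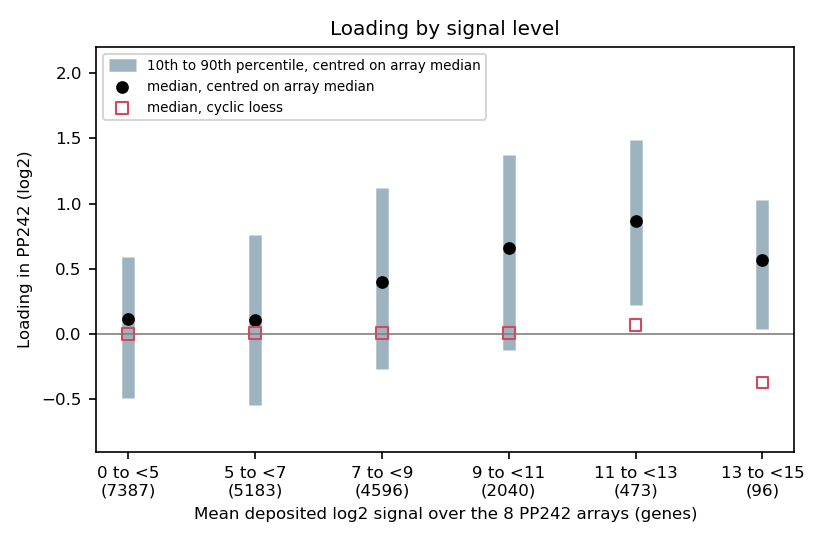
Loading in PP242-treated cells (vertical axis, log2) for genes grouped by mean deposited log2 signal over the 8 PP242 arrays (horizontal axis, number of genes in brackets). Dots are medians after centring on the array median, bars run from the 10th to the 90th percentile of genes, and open squares are medians after cyclic loess: the dots climb to 0.87 at signals of 11 to 13, and the squares lie at -0.37 for the 96 brightest genes.

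A gene with several probe sets did not always give the same loading from each. Of 2364 genes with a further probe set of mean at least 7, the sign was shared in 1803 (76.3%), and the loadings correlated at a Pearson r of 0.34 across genes (Spearman 0.35). Among 122 of these called lower under all 5 scalings, the other probe sets averaged below 0 in 63 (51.6%) and below 0.50 in 99 (81.1%). Among 584 called higher by 1 or more they averaged above 0 in 518 (88.7%). Probe sets of a gene can read different 3' ends, and which form each reads was not tested. For genes given with a standard error, probe sets in that range that differ in sign or by more than 1 are given beside the value.

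The 12 best loaded genes, taken among called genes with a mean of at least 7 and 1 sign in all 4 pairs, began with SMC3, a subunit of the cohesin ring that holds sister chromatids together. Its cytosolic signal was 3.36, 2.85, 4.21 and 2.63 above the array median in replicates 1 to 4 and its polysomal signal 6.02, 6.64, 6.20 and 5.81. The lowest polysome array thus lay above the highest cytosolic one, and loading was 2.90 ± 0.23 (SE, 4 pairs; limma adjusted p = 7.81e-06). It was 2.33 in pairs 1 and 3 and 3.49 in pairs 2 and 4, and the 3 SMC3 probe sets in range ran from 0.19 to 2.90. ATAD2, a chromatin ATPase, read 1.10, 1.72, 2.03 and 1.38 in cytosolic and 3.86, 4.47, 4.41 and 4.28 in polysomal RNA, a loading of 2.70 ± 0.14 (adjusted p = 2.44e-06). Its pairs differed little, from 2.38 to 2.90.

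UNG, the glycosylase that removes uracil from DNA, had a loading of 2.51 ± 0.20, with pairs between 1.96 and 3.18. PET100, needed to assemble cytochrome c oxidase, reached 2.41 ± 0.16, with pairs from 2.09 to 2.88, and ATP1B1, the beta subunit of the sodium pump, 2.38 ± 0.17, with pairs from 1.96 to 2.79. The second ATP1B1 probe set in range read 0.09. A probe set assigned to the ubiquitin pseudogene UBBP1 also read 2.41 ± 0.31. Its pairs spread from 1.06 to 3.40, with 1.49 in pairs 1 and 3, and since it may share sequence with the ubiquitin genes its identity is uncertain. The remaining 6 were EME1 (2.37, a DNA junction endonuclease subunit), SNAPC1 (2.34, of the small nuclear RNA promoter complex), THOC7 (2.34, of the THO complex in mRNA export), NUDT1 (2.32, which clears oxidized nucleotides), UBN1 (2.30, of a histone H3.3 chaperone) and ESF1 (2.28, a nucleolar protein). THOC7 was at 1.70 in pairs 1 and 3, and the 2 UBN1 probe sets in range read 0.59 and 2.30. The next gene in order stood at 2.26, so the edge of this set is not a step.

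The 12 worst loaded genes opened with mitochondrially encoded RNAs, ND2 at -2.29 ± 0.27 and ND4 at -1.54 ± 0.16. VMA21, which assembles the vacuolar proton pump, read 5.46, 5.65, 5.44 and 5.58 in cytosolic and 3.79, 3.64, 4.13 and 4.41 in polysomal RNA. The groups were far apart, and the loading was -1.54 ± 0.16 (adjusted p = 2.35e-05). PCBD1, an enzyme of tetrahydrobiopterin recycling that also binds the factor HNF1, read 3.34, 3.74, 2.63 and 3.54 against 1.89, 1.84, 1.56 and 1.92, a loading of -1.51 ± 0.16 (adjusted p = 2.42e-05). No polysome array reached the lowest cytosolic one.

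DDX6, the helicase that represses mRNAs in P-bodies, had a loading of -1.34 ± 0.19 with pairs from -2.01 to -0.77. KHDC4, an RNA-binding protein, stood at -1.30 ± 0.14, and its pairs lay close together, from -1.43 to -1.08. TMEM41B, a lipid scramblase of the endoplasmic reticulum, stood at -1.29 ± 0.17, MFAP3 at -1.20 ± 0.14 and TMEM170A at -1.19 ± 0.20. The set held 2 non-coding RNAs, OIP5-AS1 at -1.21 ± 0.18 and the snoRNA host SNHG32 at -1.18 ± 0.17. AZIN1 completes it and is described with the polyamine genes, and the next gene in order stood at -1.15.

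**Figure D2:**
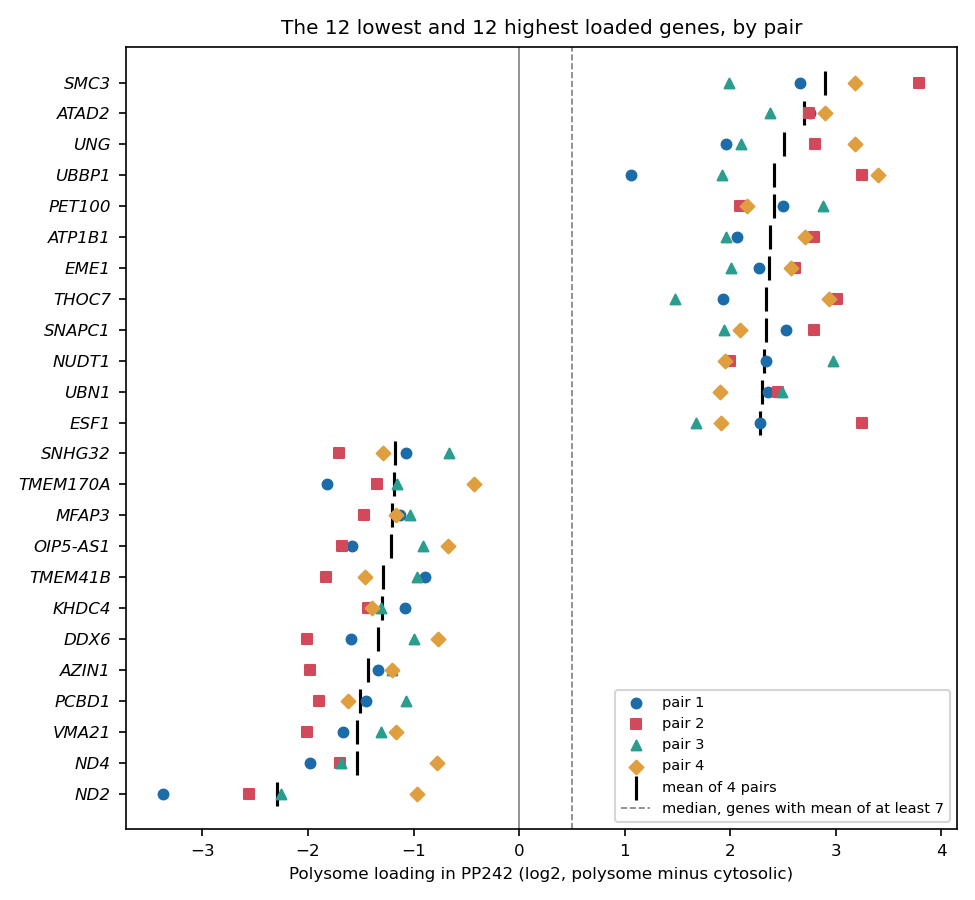
Loading (horizontal axis, log2, polysome minus cytosolic) of the 12 lowest and 12 highest loaded genes in PP242-treated cells. Symbols are the 4 pairs, bars their means and the dashed line the median of 0.50 for the 7205 genes: no gene has a pair on the other side of 0, and the spread over pairs is widest for ND2 (-3.37 to -0.97) and UBBP1 (1.06 to 3.40).

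Ribosomal protein mRNAs, the main TOP class, were loaded like the ordinary mRNA of these cells on the centred scale. Of 53 measured, 43 were called higher and 2 lower, against 40.5% and 12.4% of all genes and 58.5% and 5.54% of the 7205. Their median was 0.49 (SD over the 4 pairs 0.07), beside 0.50 for the 7205 genes and 0.57 for the brightest class, to which most of them belong, and 0.51 in vehicle. Under cyclic loess the median was -0.47, and 1 was called higher and 2 lower under all 5 scalings, so their direction depends on the scale. RPS6, the S6 kinase substrate of the small subunit, read 8.60, 8.42, 8.29 and 8.15 in cytosolic and 9.10, 9.27, 8.82 and 8.87 in polysomal RNA. Its loading was 0.65 ± 0.11 (adjusted p = 3.77e-04) and -0.29 under cyclic loess.

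The ribosomal proteins were not uniform. RPL27A, a large-subunit protein, read 2.57, 2.76, 2.64 and 2.82 in cytosolic and 3.89, 3.88, 4.01 and 4.00 in polysomal RNA. Its loading, 1.25 ± 0.14 (limma adjusted p = 2.89e-05), was the highest of the list. The probe set had a mean deposited signal of 8.14, against a list median of 13.6. RPL3, which lines the peptidyl transferase region, stood at 0.90 ± 0.12 and at -0.02 under cyclic loess. At the other end RPL29, a small basic protein of the large subunit, read 8.36, 8.68, 7.98 and 8.53 in cytosolic and 8.13, 7.89, 7.90 and 8.07 in polysomal RNA. These ranges overlap, while every pair was negative, from -0.79 to -0.08, and the loading was -0.39 ± 0.13 (adjusted p = 0.0228), with -0.16 in pairs 1 and 3. It did not pass without replicate 2 (-0.26) or 4 (-0.37). RPL41, which encodes one of the shortest known human proteins, stood at -0.06 ± 0.09 and RPL30 at -0.03 ± 0.11, and neither passed the test. The other member called lower, RPL36A at -1.28, had a mean deposited signal of 4.17 and is near background. The windows printed above do not order these genes: RPL29 and RPL27A have starts with equally long runs.

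The start motif was then set against loading over all genes. A C and 4 or more pyrimidines stood at the RefSeq start of 1104 of 27305 promoters (4.04%) and of 369 of 6111 matched genes with a mean of at least 7. The median loading was 0.48 with the motif and 0.50 without it, and 57.5% and 58.8% were called higher, 6.5% and 5.26% lower. Genes with the motif had a higher median signal (8.94 against 8.48), and after cyclic loess the medians were -0.11 and 0.01. Among matched ribosomal protein genes 32 of 45 (71.1%) had it, with a median of 0.43 against 0.58 for the 13 without it. An annotated start is 1 position per gene, and cells may use others.

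Of 23 other mRNAs described as TOP, 14 were called higher and 2 lower, with a median of 0.50 (0.53 in vehicle) and -0.45 under cyclic loess. That is below genes with signals of 11 to 13, the class of their median signal, at 0.87 (0.90 in vehicle). EEF1D, a subunit of the factor that recharges eEF1A, was the best loaded at 1.68 ± 0.12, followed by EIF3K (1.56 ± 0.12) and EIF3L (1.21 ± 0.11) of initiation factor 3. EEF2, the translocase, read 8.84, 8.47, 8.80 and 8.30 in cytosolic and 9.68, 9.71, 9.59 and 9.55 in polysomal RNA. The groups did not overlap, and its loading was 1.03 ± 0.11 (adjusted p = 2.98e-05). EEF1A1, which brings charged tRNA to the ribosome, was at 0.30 ± 0.09 (adjusted p = 0.0143, not past the test without replicate 1, at 0.31, or 3, at 0.27), TPT1 at 0.50 ± 0.10 and the intermediate filament protein VIM at 0.42 ± 0.09. All of these last 3 lie near the median and turned negative under cyclic loess, at -0.70, -0.45 and -0.56. Of 5 TPT1 probe sets in range, 4 shared the sign and the lowest read -0.14. PABPC1, the poly(A)-binding protein, showed -0.05 ± 0.10 and CCNI -0.30 ± 0.14, neither past the test.

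EIF4B, a helper of the eIF4A helicase and a target of S6 kinase, was called lower. It read 4.95, 5.23, 4.72 and 5.25 in cytosolic and 4.41, 4.47, 4.19 and 4.53 in polysomal RNA. Every polysome array lay below every cytosolic array, and the loading was -0.64 ± 0.13 (adjusted p = 0.0018), with -0.32 in vehicle. A second EIF4B probe set in range read 0.00. The other one called lower, EIF4A2 at -0.60, had a mean deposited signal of 3.41.

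Initiation factor mRNAs outside the TOP list were well loaded. Of 31, 22 were called higher and none lower, with a median of 0.82 (0.73 in vehicle). Gene by gene, their median PP242 minus vehicle loading was -0.15. EIF4B and EIF4A2, called lower above, are initiation factors counted with the TOP mRNAs. EIF4G1, the scaffold of the cap-binding complex, was at 1.41 ± 0.14 and EIF5B, which joins the subunits, at 1.54 ± 0.17, with its 5 probe sets in range between 0.42 and 2.92. EIF1AX read 5.83, 4.49, 6.10 and 4.09 in cytosolic and 7.03, 7.19, 7.12 and 7.39 in polysomal RNA, a loading of 2.06 ± 0.31 (adjusted p = 2.07e-04). The polysome arrays lay close together, whereas cytosolic arrays 2 and 4 were low, and loading was 1.11 in pairs 1 and 3 and 3.00 in pairs 2 and 4. Its 4 probe sets in range ran from -0.66 to 2.75, 3 of them positive. EIF3A showed the same split, at 1.64 ± 0.25 over 4 pairs and 0.88 in pairs 1 and 3, and its 3 probe sets in range ran from -0.08 to 1.63. EIF4E, the cap-binding protein, showed -0.28 ± 0.15 and its repressor EIF4EBP1 -0.38 ± 0.15, neither past the test, and the 2 EIF4E probe sets in range read -0.28 and 0.98. EIF5A, at -0.36 ± 0.16, did not pass either. Left without replicate 4 EIF4E passed at -0.42, and without replicate 3 EIF4EBP1 passed at -0.47 and EIF5A at -0.48.

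The 7 measured mitochondrially encoded RNAs, which are translated inside mitochondria on the organelle's own ribosomes, had the lowest median of the lists, -0.38, close to the -0.35 of the long non-coding RNAs. It was -0.69 in pairs 1 and 3 and 0.05 in pairs 2 and 4, with an SD of 0.81 over the 4 pairs. ND2 and ND4 were called lower and COX1 higher. ND2, a complex I subunit, read 8.56, 7.97, 8.75 and 8.02 in cytosolic and 5.19, 5.41, 6.49 and 7.05 in polysomal RNA, so polysome arrays 3 and 4 were the highest and none reached the cytosolic range. Its 4 pair values were -3.37, -2.56, -2.26 and -0.97 (adjusted p = 5.16e-05). ND4 read 9.39, 9.23, 9.46 and 9.18 against 7.41, 7.53, 7.77 and 8.40, again without overlap. COX2 showed -0.38 ± 0.16, ATP6 -0.56 ± 0.27, COX3 0.24 ± 0.31 and ND6 0.45 ± 0.23, none past the test, and in each of these 4 the pairs had both signs. Without replicate 4, ATP6 (-1.05) and COX2 (-0.62) were called lower, and without replicate 1, ND6 (0.71) was called higher. COX1 read 9.03, 8.65, 9.32 and 8.82 in cytosolic and 9.51, 9.67, 9.64 and 9.81 in polysomal RNA, a loading of 0.70 ± 0.13 (adjusted p = 7.96e-04) that was 0.40 in pairs 1 and 3 and -0.28 under cyclic loess.

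**Figure D3:**
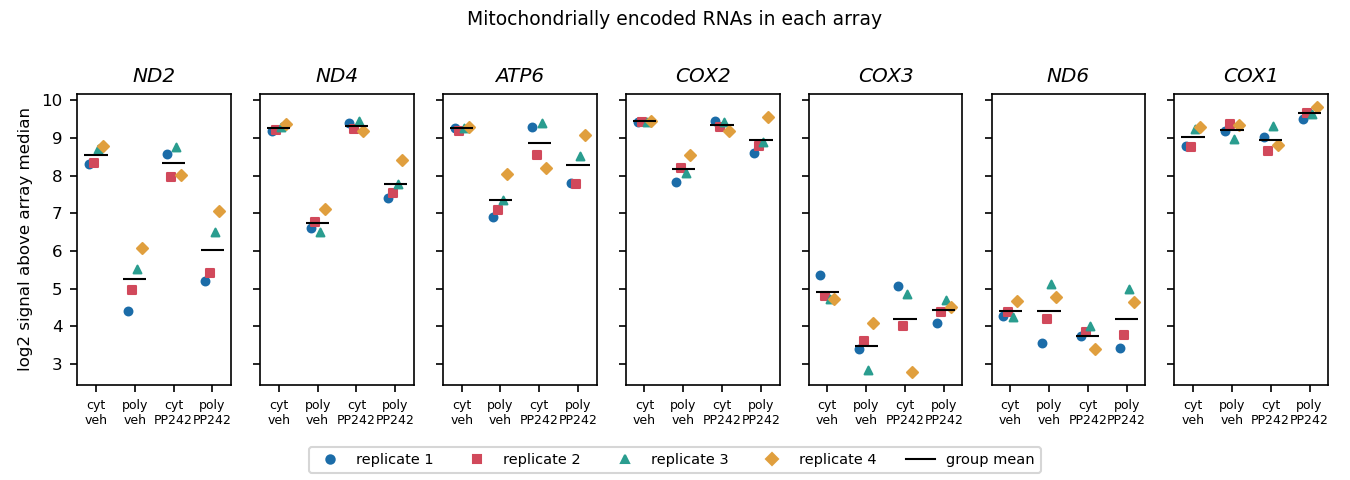
Signal of the 7 mitochondrially encoded RNAs in each of the 16 arrays (vertical axis, log2 above the array median), by RNA pool and treatment. Symbols are replicates and bars group means: for ND2 and ND4 every polysome array lies below every cytosolic array of the same treatment, and for ND4, COX1 and COX2 all 4 polysomal PP242 arrays lie above the 4 polysomal vehicle arrays.

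The nuclear genes of the same machinery were at the other end. Of 76 nuclear-encoded respiratory chain and ATP synthase genes 67 were called higher and 2 lower, with a median of 0.95 (1.02 in vehicle) against 0.87 for genes with signals of 11 to 13, the class of their median signal. NDUFB7, a small complex I subunit, read 3.38, 3.83, 3.07 and 3.84 in cytosolic and 5.76, 5.72, 5.58 and 5.51 in polysomal RNA. The gap between the groups exceeded their ranges, and the loading was 2.11 ± 0.16 (adjusted p = 6.74e-06). NDUFS6 of complex I followed at 2.02 ± 0.18 and COX5B of complex IV at 1.76 ± 0.14. UQCR10, a small subunit of complex III, showed -0.37 ± 0.15 and did not pass (adjusted p = 0.0523), except without replicate 3 (-0.47). The pair called lower, ATP5MF at -0.91 and COX7A1 at -0.43, had mean deposited signals of 5.25 and 4.44.

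Mitochondrial ribosomal proteins resembled them, with 61 of 75 called higher, 1 lower and a median of 0.88 (1.05 in vehicle). MRPL19 was at 2.03 ± 0.23 (1.48 in pairs 1 and 3) and MRPL52 at 1.93 ± 0.14. MRPL42 was the one called lower, at -0.47 ± 0.16 (adjusted p = 0.0281), with pairs from -0.89 to -0.02. It did not pass without replicate 1, 2 or with no block. Loading by length of the encoded protein was not analysed here.

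Long non-coding RNAs were the least loaded class of nuclear transcripts. Among genes with a mean of at least 7, 28.6% of 77 lncRNAs were called higher and 20.8% lower, with a median of 0.13, beside 59.0%, 5.35% and 0.50 for 7080 protein-coding genes. Of 24 lncRNAs in the list, 5 were called higher and 10 lower, with a median of -0.35 (-0.46 under cyclic loess). OIP5-AS1, a cytoplasmic lncRNA, read 3.67, 3.70, 3.30 and 3.14 in cytosolic and 2.09, 2.02, 2.39 and 2.47 in polysomal RNA, without overlap. UCA1, first known from bladder carcinoma, was at -0.87 ± 0.15 and the snoRNA hosts ZFAS1 and DANCR at -0.61 ± 0.13 and -0.52 ± 0.16, the latter not past the test without replicate 2 (-0.40) or 4 (-0.45). In pairs 1 and 3 ZFAS1 was at -0.40 and DANCR at -0.23, and 1 of 4 ZFAS1 probe sets in range was positive, at 0.12. GAS5, a snoRNA host with a TOP start, showed -0.30 ± 0.12 (adjusted p = 0.054) at a mean deposited signal of 4.26.

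MALAT1, a nuclear-retained RNA, went the other way but unevenly. It read 5.19, 4.17, 7.38 and 4.02 in cytosolic and 6.23, 7.45, 7.79 and 5.83 in polysomal RNA, so the ranges overlapped. Loading was 1.64 ± 0.33 (adjusted p = 0.00164, and 0.0501 with no block), from 0.41 to 3.28 over pairs and 0.73 in pairs 1 and 3. Of its 7 probe sets in range 3 had that sign, between -0.88 and 1.86.

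Stress messages known for upstream reading frames that restrain their translation were also loaded less. Of 14 measured, 4 were called higher and 3 lower, beside 40.5% and 12.4% of all genes, with a median of 0.05 (0.07 in vehicle). ATF4, the transcription factor of the integrated stress response, read 5.05, 5.53, 4.89 and 5.45 in cytosolic and 5.32, 5.21, 5.26 and 5.13 in polysomal RNA. The polysomal values lay within the cytosolic range, and loading was 0.00 ± 0.16. ATF5 showed -0.30 ± 0.18 and PPP1R15A, the stress-induced eIF2 phosphatase subunit, 0.04 ± 0.13. Its constitutive relative PPP1R15B was called lower at -0.69 ± 0.19 (adjusted p = 0.00983), though pair 4 was at 0.09, and SLC35A4 lower at -0.50 ± 0.15. Without replicate 1 neither passed (-0.51 and -0.49), and SLC35A4 did not without replicate 2 (-0.40) or in pairs 1 and 3 (-0.30). EPRS1, the glutamyl-prolyl tRNA synthetase, was the highest at 1.60 ± 0.12. The remaining calls were CEBPB (0.96), IFRD1 (1.07) and MIEF1 (0.58) higher and CHAC1 (-0.38) lower.

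Among the 10 polyamine genes, 5 were called higher and 1 lower. OAZ1, the antizyme that inhibits ornithine decarboxylase and is made by ribosomal frameshifting, read 7.53, 7.46, 7.39 and 7.48 in cytosolic and 8.45, 8.36, 8.41 and 8.53 in polysomal RNA. The replicates hardly differed, and loading was 0.97 ± 0.11 (adjusted p = 2.89e-05). Its counterpart AZIN1, the antizyme inhibitor, which has an upstream conserved coding region, read 3.83, 4.35, 3.78 and 4.22 against 2.49, 2.37, 2.58 and 3.02, a loading of -1.43 ± 0.16 (adjusted p = 3.68e-05). The other AZIN1 probe set in range read 1.03. ODC1, the decarboxylase, showed 0.34 ± 0.15, AMD1 0.12 ± 0.14 and SRM, spermidine synthase, -0.35 ± 0.16, none past the test, though ODC1 passed without replicate 2 (0.48) and SRM without replicate 3 (-0.49). The second AMD1 probe set in range read -0.22. PAOX, an oxidase of acetylated polyamines, was at 1.27 ± 0.17, with a second probe set in range at 0.15, SMOX at 1.05, SMS at 0.88 and SAT1 at 0.45.

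Of 9 iron-control mRNAs 2 were called higher, PCBP2 (0.80) and PCBP1 (0.50), and none lower. FTL, the ferritin light chain whose 5' end carries an iron-responsive element, showed -0.08 ± 0.10, with its pairs between -0.17 and -0.01. TFRC, the transferrin receptor, showed 0.20 ± 0.14, and its other probe set in range read -0.66.

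Of 23 mRNAs described as sensitive to eIF4E, 10 were called higher and 3 lower, close to the 40.5% and 12.4% of all genes. Their median was 0.31 (0.42 in vehicle). MTA1, a chromatin remodelling subunit, was at 1.77 ± 0.15, the mitochondrial transcription factor TFAM at 1.68 ± 0.14 (3 probe sets in range, from 0.46) and cyclin D1 (CCND1) at 1.15 ± 0.14. CCND1 read 2.83, 3.06, 3.10 and 3.32 in cytosolic and 3.78, 4.34, 4.39 and 4.39 in polysomal RNA, without overlap, and its second probe set in range read 0.06. MYC showed 0.30 ± 0.13 (adjusted p = 0.0688) and passed without replicate 4 (0.40). HIF1A was at 0.46 ± 0.18 (adjusted p = 0.0485), with 0.02 in pairs 1 and 3, and did not pass without replicate 2 (0.34) or 4 (0.28). RRM2, a ribonucleotide reductase subunit, was at 0.54 ± 0.14. All these 3 were negative under cyclic loess.

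MCL1, the short-lived survival factor, was called lower. It read 5.31, 5.67, 5.52 and 5.67 in cytosolic and 4.22, 4.52, 4.92 and 5.07 in polysomal RNA, and the groups did not overlap. Loading was -0.86 ± 0.15 (adjusted p = 5.33e-04), but a second MCL1 probe set in range read 0.18 and the mean of all its probe sets gave 0.16. The other members called lower were SNAI1 (-0.96) and FGF2 (-0.76), with mean deposited signals of 5.38 and 5.83.

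Immediate-early and other short-lived mRNAs were loaded less than the median mRNA, with a median of 0.09 (0.00 in vehicle). Of 33, 7 were called higher and 4 lower, beside 40.5% and 12.4% of all genes. EGR1, a serum-induced transcription factor, read 6.28, 6.64, 6.51 and 6.52 in cytosolic and 5.23, 5.25, 5.71 and 5.24 in polysomal RNA, without overlap. Its loading was -1.13 ± 0.14 (adjusted p = 5.87e-05), and its 3 probe sets in range ran from -1.53 to 0.30, 2 of them negative. SPRY4, a feedback inhibitor of receptor signalling, was at -1.01 ± 0.15, ZFP36L1, which binds AU-rich elements, at -0.78 ± 0.17 and its relative ZFP36 at -0.83. KLF6 (1.12 ± 0.14) and IER5 (1.17 ± 0.17, 0.84 in pairs 1 and 3) were called higher. Only 2 of 4 KLF6 probe sets in range were positive, and the lowest read -1.16.

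The mTOR pathway's own mRNAs had a median of 0.17, with 10 of 31 called higher and 4 lower, beside 40.5% and 12.4% of all genes. MTOR was at 0.64 ± 0.19 (adjusted p = 0.0151) with pair 4 at -0.18, and did not pass without replicate 1 (0.49) or 2 (0.57). TSC1, a brake on the pathway, was at 0.90 ± 0.13. RPS6KB1, the S6 kinase, was at -0.68 ± 0.16 (adjusted p = 0.00456), with all pairs negative, but its second probe set in range read 0.09. AKT1 was at -0.55 ± 0.19 (adjusted p = 0.0295), with -0.08 in pairs 1 and 3, and did not pass without replicate 2 (-0.38) or 4 (-0.40). AKT1S1 (-0.37) and LAMTOR3 (-0.42) were the others called lower. IRS2, an insulin receptor adaptor under feedback control, was at -0.77 ± 0.15 and DDIT4, a stress-induced inhibitor of the complex, showed 0.08 ± 0.15.

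Messages for protein turnover and tRNA charging were loaded best of the lists. Of 34 proteasome subunits, 32 were called higher and 1 lower, with a median of 0.99 (1.23 in vehicle). PSMA4, a ring subunit of the core, read 4.93, 4.86, 4.55 and 4.88 in cytosolic and 6.73, 6.86, 6.52 and 6.60 in polysomal RNA, a loading of 1.87 ± 0.13 (adjusted p = 4.96e-06). PSMC6, an ATPase of the cap, was at 1.80 ± 0.16, while PSMD5, a chaperone of cap assembly, was at -0.86 ± 0.17 (adjusted p = 0.00145). Of 17 aminoacyl-tRNA synthetases, 15 were called higher and none lower, with the highest median of the lists, 1.04 (1.22 in vehicle). VARS1, the valyl enzyme, was at 1.76 ± 0.18.

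Glycolysis enzymes had 13 of 17 called higher, none lower and a median of 0.67 (0.98 in vehicle). That is below the 0.87 of genes with signals of 11 to 13, the class of their median signal. HK1, which commits glucose to the pathway, was at 1.54 ± 0.13, PGK1 at 1.39 ± 0.14 and GAPDH at 0.51 ± 0.10, the last -0.46 under cyclic loess. PKM showed -0.10 ± 0.13. Endoplasmic reticulum chaperones had 14 of 18 called higher and a median of 0.69, near the 0.66 of genes with signals of 9 to 11. PDIA3 (1.80 ± 0.16), CRELD2 (1.69 ± 0.16) and HSP90B1 (1.65 ± 0.13) led, and HSPA5, the main chaperone of the compartment, was at 0.96 ± 0.11. The 2 PDIA3 probe sets in range read -0.13 and 1.80.

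In the cytoskeleton, 17 of 18 actin, tubulin and keratin genes were called higher. Their median was 0.86, near the 0.87 of genes with signals of 11 to 13. TUBA1A was at 1.82 ± 0.12, TUBB2A at 1.66 ± 0.14, KRT19 at 1.48 ± 0.16 and ACTB at 0.32 ± 0.09, and PFN1 (-0.12 ± 0.14) did not pass. ACTB was negative under the other 4 scalings and did not pass without replicate 1 (0.27) or 3 (0.31). Large cytoskeletal and motor proteins, whose long coding regions have room for many ribosomes, had 9 of 16 called higher and a median of 0.52, close to the 58.5% and 0.50 of the 7205 genes. KIF5B, a kinesin, was at 1.38 ± 0.17, with its 3 probe sets in range from 0.00 to 1.38, and the cross-linker PLEC was called lower at -0.65 ± 0.18 (adjusted p = 0.00887), with -0.27 in pairs 1 and 3 and no call without replicate 2 (-0.52). Surface receptors, integrins and matrix genes had 16 of 27 called higher, 1 lower (FN1, -0.40) and a median of 0.50. ERBB2 was at 1.25 ± 0.15, INSR at 1.20 ± 0.14 and ITGA3 showed -0.16 ± 0.15. The 3 INSR probe sets in range ran from -0.10 to 1.20.

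Cell cycle messages were well loaded after 12 hours of mTOR block. Of 39 S phase genes, 31 were called higher and none lower, with a median of 0.67 (0.92 in vehicle). GINS4 of the replicative helicase was at 1.55 ± 0.15, MCM5 at 1.54 ± 0.17 and the sliding clamp PCNA at 1.51 ± 0.20 (1.00 in pairs 1 and 3), while the clamp loader subunit RFC3 showed -0.26 ± 0.15, which passed without replicate 4 (-0.40). Of 32 mitotic genes 23 were called higher and 1 lower (PLK1, -0.37), with a median of 0.94 (0.76 in pairs 1 and 3, 0.66 in vehicle). Gene by gene, their median PP242 minus vehicle loading was 0.07. TOP2A, which untangles sister DNA, read 5.28, 4.58, 5.54 and 4.61 in cytosolic and 7.11, 7.61, 7.26 and 6.79 in polysomal RNA, a loading of 2.19 ± 0.19 (adjusted p = 1.05e-05). Its second probe set in range read 0.45. SPC25 of the kinetochore was at 1.68 ± 0.16 and the centromeric histone CENPA showed -0.30 ± 0.15. Most replication-dependent histone mRNAs lack the poly(A) tail from which the array target is primed. The list of 46 genes used for this class also holds some histone variants outside it, such as H1-10 and H1-8. Of the 46, 14 were called higher and 11 lower, beside 40.5% and 12.4% of all genes. A mean of 7 or more was reached by 9 of them. H2BC6 showed -0.35 ± 0.15, which passed without replicate 3 (-0.49).

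Zinc finger genes of the ZNF family, the largest group of human transcription factors, had a median of 0.17 (0.04 in vehicle) at a median signal of 5.90. Of 466, 139 were called higher and 68 lower, beside 40.5% and 12.4% of all genes. ZNF618 was at 1.84 ± 0.18, ZNF664 at -0.85 ± 0.15 and ZNF587 at -0.72 ± 0.13. Splicing factors had 22 of 32 called higher and none lower, with a median of 0.86. HNRNPA2B1 was at 1.60 ± 0.19 and HNRNPM at 1.57 ± 0.12, and SRSF5 showed -0.33 ± 0.13. HNRNPA2B1 was at 1.15 in pairs 1 and 3 and 2.05 in pairs 2 and 4, and 1 of its 3 probe sets in range read -0.64. Heat shock chaperones had 13 of 15 called higher and a median of 0.83, led by the co-chaperone BAG3 at 1.80 ± 0.14, with DNAJB4 called lower at -0.90 and DNAJB1 at -0.28 ± 0.15, not past the test.

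Sterol and fatty acid synthesis had 10 of 16 called higher, 1 lower (HMGCS1, -0.55) and a median of 0.58. FDPS, which makes farnesyl diphosphate, was at 1.82 ± 0.14, and ACLY, which supplies cytosolic acetyl-CoA, at 1.72 ± 0.18 (1.28 in pairs 1 and 3), with its 3 probe sets in range from 0.19. Lysosome and autophagy genes had 20 of 32 called higher, 2 lower (TFEB, -0.60, and GABARAPL1, -0.58) and a median of 0.46 (0.70 in vehicle). The protease CTSD was at 1.44 ± 0.17, the membrane glycoprotein LAMP1 at 1.08 ± 0.11, the autophagy receptor SQSTM1 at 0.33 ± 0.13 and ATG12 showed -0.27 ± 0.14. TXNIP, a glucose-responsive inhibitor of glucose uptake, was at 0.48 ± 0.12. Probe sets in range ran from -0.26 to 1.21 for LAMP1 (3 of 4 positive) and from -0.60 to 1.47 for TXNIP (2 of 3 positive). SQSTM1 and TXNIP were negative under cyclic loess. SQSTM1 did not pass with any 1 replicate left out (0.27 to 0.37).

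**Figure D4:**
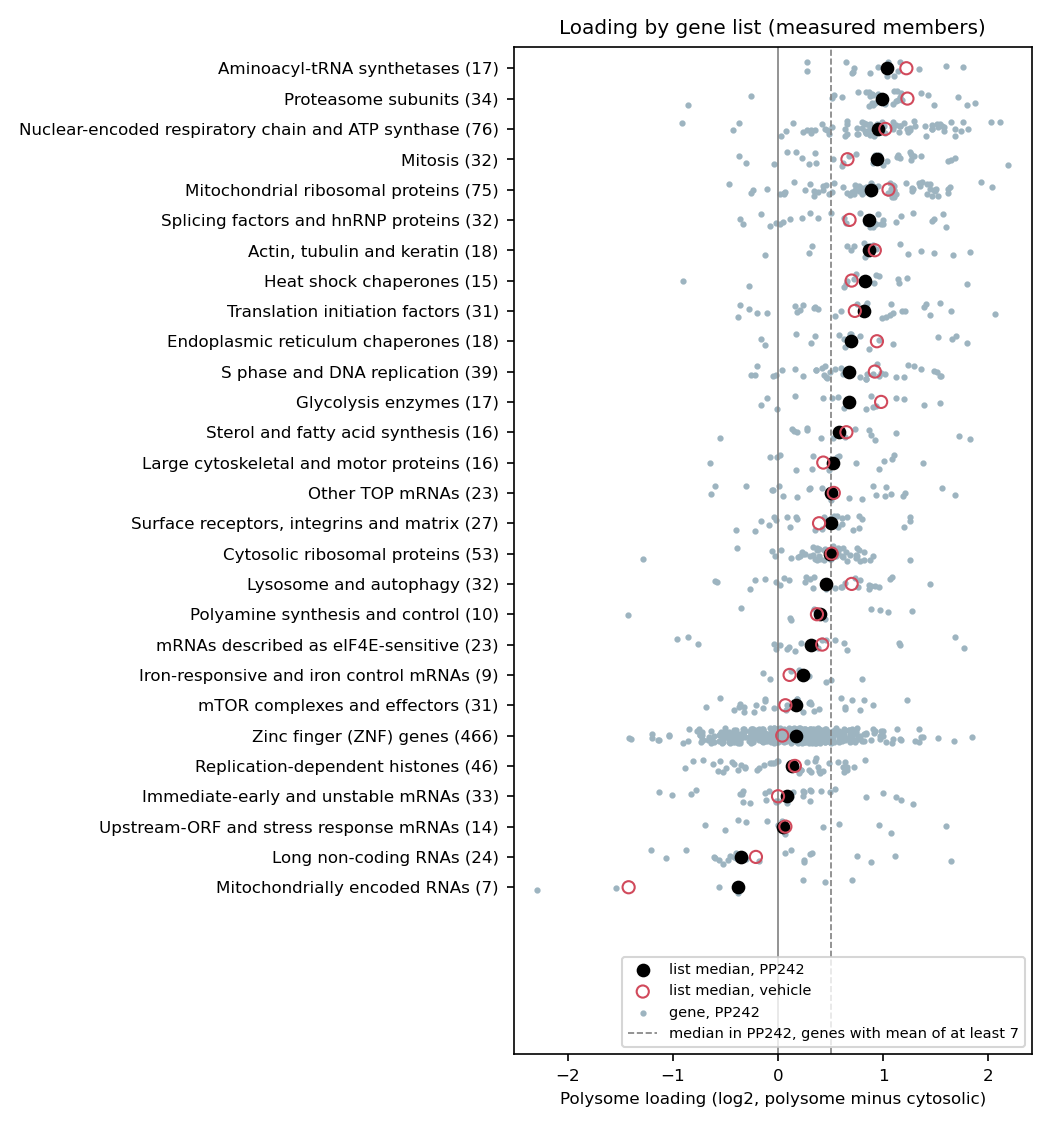
Loading (horizontal axis, log2) of the measured members of each gene list in PP242-treated cells (small dots, members in brackets), with the list median in PP242 (filled) and in vehicle (open). The dashed line marks 0.50: aminoacyl-tRNA synthetases (1.04) and proteasome subunits (0.99) lie highest, mitochondrially encoded RNAs (-0.38) and long non-coding RNAs (-0.35) lowest, and only the mitochondrially encoded list has medians further apart than 1, at -0.38 and -1.42.

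Loading under PP242 largely followed loading in vehicle. Across the 7205 genes the Pearson correlation was 0.87 and the Spearman correlation 0.86, with a median difference of -0.05. The points share probe sets, and genes are not independent replicates. In the same kind of fit on the vehicle arrays, 10267 genes were called higher (51.9%) and 3391 lower (17.1%), and 69.7% and 12.4% of the 7205.

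The direct test of PP242 minus vehicle loading, on 8 differences between arrays of the same treatment and number, called 0 genes with limma (2920 had an unadjusted p under 0.05). With the replicate number as a further block, 926 genes were called (4.68%): 726 higher in PP242 (3.67%) and 200 lower (1.01%). Of the 7205 genes 7.59% were called, 6.65% higher and 0.944% lower. The pooled count rests on single replicates. It was 701, 167, 1953 and 274 without replicate 1, 2, 3 and 4, and 455 after cyclic loess. In replicates 1 and 3 alone the block called 0 genes (1669 at an unadjusted p under 0.05). That fit rests on fewer differences and has less power, so the lack of calls there decides little. Of the 926 calls, 923 kept their direction in those replicates, which are also part of the full fit. Every difference below is from the fit with the block, and without it none passed.

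The mitochondrially encoded RNAs held 6 of these calls among 7 members, all toward better loading in PP242. For ND4 the vehicle pairs were -2.59, -2.45, -2.79 and -2.25 and the PP242 pairs -1.98, -1.70, -1.69 and -0.78, a difference of 0.98 ± 0.13 (limma with the block, adjusted p = 3.78e-05). No PP242 pair was as low as any vehicle pair, and replicates 1 and 3 alone gave 0.86. COX2 had vehicle pairs of -1.58, -1.23, -1.36 and -0.92 and PP242 pairs of -0.87, -0.49, -0.51 and 0.37, a difference of 0.90 ± 0.11 (adjusted p = 3.08e-05). Differences were 1.66 ± 0.17 for COX3, 1.35 ± 0.14 for ATP6, 1.00 ± 0.15 for ND2 and 0.51 ± 0.12 for COX1. ND6, encoded on the opposite strand of the mitochondrial genome from the rest, showed 0.44 ± 0.17 and did not pass (adjusted p = 0.138). The part of cytosolic arrays 2 and 4 in these values was not tested beyond the results in replicates 1 and 3, which were 1.34 for COX3, 0.96 for ATP6, 0.78 for COX2, 0.72 for ND2 and 0.34 for COX1.

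**Figure D5:**
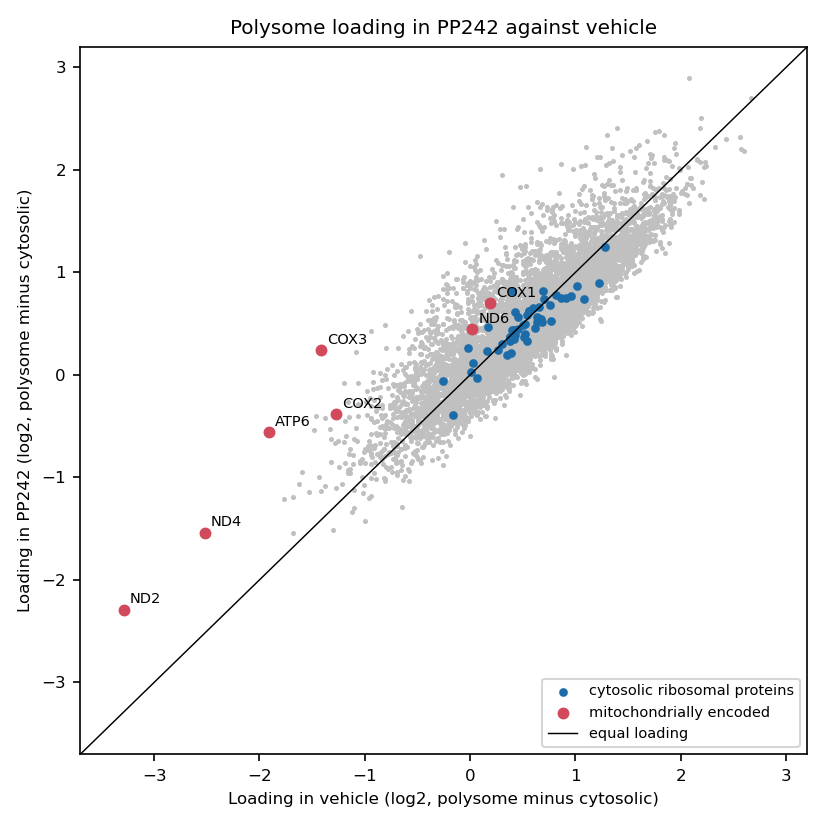
Loading in PP242 (vertical axis) against loading in vehicle (horizontal axis), both log2, for genes with a mean of at least 7 (grey), with the 7 mitochondrially encoded RNAs and the cytosolic ribosomal proteins in that range marked. The line marks equal loading: the mitochondrially encoded RNAs all lie above it, COX3 at 0.24 against -1.42, and the ribosomal proteins straddle it around a median of 0.49 against 0.51.

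Among other lists, mitosis had 9 of 32 members called higher against vehicle and ZNF genes 45 of 466, beside 3.67% of all genes. The median PP242 minus vehicle loading of these lists was only 0.07 and 0.09, and members of the mitosis list differed from vehicle in both directions. Cytosolic ribosomal proteins had 0 of 53 called in either direction and mTOR components 0 of 31, beside 4.68% of all genes and 7.59% of the 7205. At those shares, lists this short would hold few calls, so the absence of calls says little. The median PP242 minus vehicle loading of the ribosomal proteins was -0.03 and that of the other TOP mRNAs -0.09, against -0.05 for the 7205 genes. TOP2A was better loaded in PP242 by 0.67 ± 0.14 (limma with the block, adjusted p = 0.00573), and by 0.36 in replicates 1 and 3.

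Genes with a large difference, chosen after their values were seen, shared a pattern over replicates. SKIC3, a scaffold of the complex that feeds mRNA to the exosome, had PP242 pairs of 1.23, 3.02, 0.62 and 2.94 and vehicle pairs of 0.07, 0.82, -0.03 and 0.34. Its difference was 1.65 ± 0.21 (limma with the block, adjusted p = 3.08e-05) and 0.90 in replicates 1 and 3. The pairs with cytosolic arrays 2 and 4 were the high ones, since SKIC3 read 3.07, 1.50, 3.71 and 1.23 in cytosolic and 4.30, 4.52, 4.33 and 4.17 in polysomal RNA. A second SKIC3 probe set in range had a PP242 loading of 0.41. IFT80, of the ciliary transport machinery, differed by 1.64 ± 0.19 and by 1.04 in replicates 1 and 3, and the kinase YES1 by 1.40 ± 0.16 and 1.00, with PP242 loadings from 0.08 to 1.19 over its 2 probe sets in range. Toward poorer loading, CDK7, the kinase that activates cell cycle kinases, had PP242 pairs of 0.30, -0.31, 0.16 and -0.22 and vehicle pairs of 0.73, 0.75, 0.81 and 0.90. The groups did not overlap, and the difference was -0.82 ± 0.15 (adjusted p = 0.00204), with -0.54 in replicates 1 and 3. SLC3A2, the heavy chain of amino acid exchangers, differed by -0.72 ± 0.16 and TMEM41B by -0.64 ± 0.16, or -0.43 and -0.29 in replicates 1 and 3.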

How the data were processed

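The submitters' deposited table holds RMA log2 values of 54613 probe sets on 16 Affymetrix 3' arrays. RMA is per the submitters' processing notes, and nothing used here states its version or whether the pools were normalized together. Probe sets with 1 gene in the platform annotation (41091, against 1801 with several and 11721 with none listed) were used. Symbols were updated through RefSeq for 19735 of 19775 genes, and each gene was read from its brightest probe set (mean of 16 arrays). Each array was centred on its median.

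Loading was tested with limma 3.58.1 in R 4.3.3 (statmod 1.5.0 for array weights): lmFit with the replicate number as a block over 8 PP242 arrays, eBayes with a trend, two-sided, Benjamini-Hochberg over 19775 genes. Errors after ± are limma's moderated standard errors, from the 4 pairs for loading and from 8 pair differences for PP242 minus vehicle; where pairs scatter widely they are smaller than the SE of the pairs themselves. The numbers were taken to pair the samples. Deviations from group means of same-numbered polysome and cytosolic arrays correlated at 0.17 to 0.50 (PP242) and 0.56 to 0.76 (vehicle). Those of loading in PP242 and vehicle correlated at 0.29 to 0.52. In vehicle all 4 polysome arrays correlated best with the cytosolic array of their own number, but in PP242 only 2 of 4 did. Tested on simulated data for this comparison, the steps recovered 18% of 50 genes planted at log2 0.5 and 100% at 1, 1.5 and 2, with 11 false calls (6.47%). In the simulation most genes had no loading, the zero was known and cytosolic arrays 2 and 4 had no shared departure. These rates need not hold for the real arrays. The number of arrays limits precision.

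Named genes are the 12 highest and 12 lowest loadings among called genes with a mean of at least 7 and 1 sign in all pairs, extremes of each list in that range, and a panel. The rule's genes with the largest called differences from vehicle numbered 0. SKIC3, IFT80, YES1, CDK7, SLC3A2 and genes given with a loading but no error were chosen after their values were seen. Members and lists were chosen with earlier results of these data known. Start windows come from RefSeq (GRCh38.p14). Alternatives were other scalings, probe set averages, filters, weights, replicates left out and, after the data were seen, replicates 1 and 3 alone.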

Additional observations from a re-analysis of the deposited data

Results flagged for a closer look

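In 7 of 145 genes looked at, 1 pair lay far from the other 3 by Dixon's criterion, which chance meets in about 5% of groups. The pairs were replicate 2 of CENPA (-0.75) and RPL30 (-0.23), replicate 3 of EEF1A1 (0.39) and GAS5 (-0.05), and replicate 4 of EIF4E (0.16), MYC (-0.01) and ZNF618 (1.15).

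For 29 of the genes named, loading in PP242 differed from loading in vehicle in the limma test with the replicate block at an adjusted p under 0.05, and in none without the block. The value in replicates 1 and 3 alone stands after each gene's name. Mitochondrially encoded RNAs had differences of 1.66 (COX3, 1.34), 1.35 (ATP6, 0.96), 1.00 (ND2, 0.72), 0.98 (ND4, 0.86), 0.90 (COX2, 0.78) and 0.51 (COX1, 0.34). Among the best loaded genes they were 1.04 (THOC7, 0.52), 1.00 (UBBP1, 0.34), 0.82 (SMC3, 0.38), 0.61 (EME1, 0.43), 0.60 (ESF1, 0.24) and 0.59 (ATP1B1, 0.36). Initiation factors gave 1.20 (EIF1AX, 0.40) and 0.90 (EIF3A, 0.29), and non-coding RNAs 1.08 (MALAT1, 0.46) and 0.56 (OIP5-AS1, 0.64). The rest with better loading in PP242 gave 1.65 (SKIC3, 0.90), 1.64 (IFT80, 1.04), 1.40 (YES1, 1.00), 0.67 (TOP2A, 0.36), 0.66 (HIF1A, 0.30), 0.62 (MRPL19, 0.26), 0.60 (HNRNPA2B1, 0.16), 0.59 (PCNA, 0.20), 0.57 (ACLY, 0.17) and 0.56 (TUBB2A, 0.36). Poorer loading gave -0.82 (CDK7, -0.54), -0.72 (SLC3A2, -0.43) and -0.64 (TMEM41B, -0.29).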

How the results depend on the processing

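Of 145 genes named, 125 did not reverse under any alternative run, and 20 did in 45 values. Reversals were: with no centring, ACTB -0.10, ATF4 -0.41, EEF1A1 -0.11, PPP1R15A -0.38 and SQSTM1 -0.08; with centring on genes with a mean of at least 7, ACTB -0.16, AMD1 -0.35, ATF4 -0.47, DDIT4 -0.39, EEF1A1 -0.17, HIF1A -0.01, PPP1R15A -0.44, SQSTM1 -0.14 and VIM -0.05. With quantile normalization they were ACTB -0.11, AMD1 -0.39, ATF4 -0.64, DDIT4 -0.47, EEF1A1 -0.02, HIF1A -0.26, MYC -0.48, ODC1 -0.39, RRM2 -0.13, SQSTM1 -0.32, TFRC -0.64 and TXNIP -0.26. With cyclic loess they were ACTB -0.67, AMD1 -0.40, ATF4 -0.68, COX1 -0.28, DDIT4 -0.49, EEF1A1 -0.70, GAPDH -0.46, HIF1A -0.29, MYC -0.47, ODC1 -0.42, RPL3 -0.02, RPS6 -0.29, RRM2 -0.18, SQSTM1 -0.36, TFRC -0.64, TPT1 -0.45, TXNIP -0.28 and VIM -0.56. Averaging probe sets turned MCL1 to 0.16.

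Genes called higher and lower numbered 3093 and 7211 with no centring, 2659 and 8175 centred on genes with a mean of at least 7, 4127 and 4235 with quantile normalization and 4264 and 4347 with cyclic loess, against 8008 and 2459. Of these, 497 and 1149, 409 and 1418, 538 and 498, and 548 and 487 had a size of at least 1, against 1742 and 213. The median of genes with a mean of at least 7 went from 0.50 to 0.09, 0.03, 0.02 and 0.01. Averaging probe sets gave 863 and 100 calls of that size and a median of 0.35. Testing only genes with a mean of at least 7 gave 4702 calls (4278 higher, 424 lower, 28 of them at least 1 lower), from fewer genes tested. Replicates 1 and 2 alone gave 6040 calls (4674 higher, 1366 lower) and 3 and 4 alone 6024 (4782 and 1242), from fewer samples; 1 and 3 alone gave 9784. Leaving out 1 replicate gave 8689 to 10084 calls. With no replicate block, 9391 genes were called (7264 higher, 2127 lower), so the block raised the count.

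The median loading with a pyrimidine start minus that without went from -0.02 to -0.07 (quantile), -0.12 (cyclic loess), -0.04 (probe set averages, and replicates 1 and 2), -0.05 (array weights) and -0.07 (replicates 1 and 3), and ran from -0.05 to -0.02 with 1 replicate left out. For PP242 minus vehicle loading, 0 calls became 926 with the replicate block, 455 with the block after cyclic loess and 12 with array weights. With the block, leaving out replicate 1, 2, 3 or 4 gave 701, 167, 1953 and 274 calls. The cause of these shifts was not tested. With no block, 7 named genes lost their loading call: AKT1, HIF1A, MALAT1, MRPL42, RPL29, SQSTM1 and TXNIP. Signals near background and the 4 noisy cytosolic PP242 arrays limit what can be told.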
